A study of Mus musculus with 6 samples.

Results

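The genes described here encode the subunits of potassium channels and share symbols that start with Kcn. Of 85 such symbols in the table, 3 single genes (Kcna1, Kcna2 and Kcnj10) and 3 non-coding transcripts that lie opposite or across channel genes (Kcnd3os, Kcnmb4os2 and Kcnq1ot1) were left out. This left 79 of the 25755 genes measured, in 21 subfamilies named by the letters after Kcn. The RNA of whole optic nerves was sequenced from 6 mice of the genotype NF1flox/flox;hGFAP-Cre. Mice 1 to 3 had undergone a sham operation, and mice 4 to 6 an optic nerve crush (ON-CR). Surgery was done at 6 weeks and the nerves were analysed at 12 weeks of age, given as 3 months in the sample labels. Sham and ON-CR mice alike carried both Nf1 alleles flanked by loxP sites and Cre under the control of a human GFAP promoter, which removes Nf1 from neuroglial progenitors and their descendants, so that neither group has intact Nf1 in these cells and the comparison holds no mouse without Cre.

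The libraries held 17414035 to 23620994 estimated reads, with the 3 ON-CR libraries the shallowest. Glial genes of the labelled tissue were abundant, with sums of 220707 to 316434 over 8 astrocyte genes and of 617136 to 1823120 over 8 mature oligodendrocyte genes, 7 of which were called lower after ON-CR. Some libraries stood apart. The summed value of 5 plasma cell genes was 98680 in ON-CR mouse 6 and 1303 to 4215 in the other 5 mice, and that of 4 airway epithelium genes was 5393 to 7892 in sham mouse 3 and ON-CR mice 5 and 6 and 81.8 to 128 in the other 3. The X-linked transcript Xist was at 2.14 to 30.9 in sham and at 2708 to 6357 in ON-CR libraries. The Y-linked Ddx3y was at 1291 to 1645 in sham mice, at 976 in ON-CR mouse 4 and at 4.19 and 0 in ON-CR mice 5 and 6. The library of ON-CR mouse 4 thus held both, with Xist at 2708 and a second Y-linked transcript, Eif2s3y, at 363. Whether it holds RNA of more than 1 mouse was not tested, and results with or without it carry this doubt. The authors used more than 1 mouse per sample for qPCR of optic nerve RNA and give no such number for sequencing. Sex and surgery cannot be told apart here. In RNA from a whole nerve, fewer cells of a type and less RNA per cell cannot be told apart either.

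Potassium channels are membrane pores that let potassium ions pass and thereby set the resting potential and end action potentials. Voltage-gated channels open on depolarization, calcium- and sodium-activated channels follow ion levels inside the cell, inward rectifiers hold the membrane near the potassium equilibrium, and 2-pore-domain channels carry a background leak. In white matter such as the optic nerve, axons, glia and vessels carry different sets of them, and astrocytes take up the potassium that active axons release.

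All 79 genes were detected in at least 1 of the 6 libraries. More than 3 reads were found in every library for 68 of the 79 genes. Values are estimated read counts divided by 1 factor per library, and a value of 2.66 to 3.18, depending on the library, corresponds to 3 reads. The mean value in sham nerves was at least 1000 for 4 genes (Kcna6, Kcnip3, Kcnj13 and Kcnk1), at least 100 for 28 and under 10 for 10. Kcns2 and Kcnv1, which encode subunits that open no channel alone, were at or under 3 reads in all sham libraries, and Kcnv2, of the same kind, was so in all ON-CR libraries.

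Levels were ranked between genes per kilobase (kb) of the longest annotated transcript. Only the highest gene of each subfamily was picked by mean value, without division by length. Kcnj13, which encodes the inward rectifier Kir7.1 of ion-transporting epithelia, ranked first in sham nerves at 1397 per kb, but 623 of its 1270 exon bases are also exon of Gigyf2 on the opposite strand. The library kit is not one that marks strand, so that reads of these 2 genes cannot be told apart there and the level of Kcnj13 is uncertain. In all, 27 of the 79 genes share exon bases with another annotated gene. Sharing with the opposite strand also makes the levels of Kcna6 (2355 bases), Kcnmb4 (1048 bases) and Kcnma1 (1016 bases) uncertain. Fewer bases are shared in this way by Kcnn2 (607), Kcnip4 (267) and Kcnk1 (179). Next came Kcnk1, the 2-pore-domain channel TWIK1, at 514 per kb, Kcnip3, a calcium-binding partner of the A-type channels, at 493 per kb, and Kcne1l, a small single-span accessory subunit encoded on the X chromosome, at 479 per kb. The sham ranges of the last 3 overlapped (410.0 to 610.4, 402 to 595 and 459 to 507 per kb), and their order cannot be read. Below them stood Kcnk2, the mechanosensitive channel TREK1, at 247 per kb with a range of 232 to 259, apart from the genes on either side on this length. With the union of all exons as the length it was at 179 per kb, next to Kcna6 at 177, so that the order of these 2 cannot be read. Kcnk2 also shares 604 exon bases with A430027H14Rik on the opposite strand, and its level is uncertain to that extent. Kcna6, the voltage-gated channel Kv1.6, had 180 per kb, Kcnk13, the 2-pore-domain channel THIK1 known from microglia, 165 per kb, and Kcnj16, the Kir5.1 partner subunit of glial inward rectifiers, 156 per kb, with overlapping ranges. The list of 15 closed with Kcnk5, Kcnn2, Kcnq3, Kcnj8, Kcnip4, Kcne4 and Kcnd2, at 97.4 down to 42.4 per kb. With the union of all exons as the length, 14 of these 15 stayed among the 15 highest, and Kcnip4 did not.

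**Figure D1:**
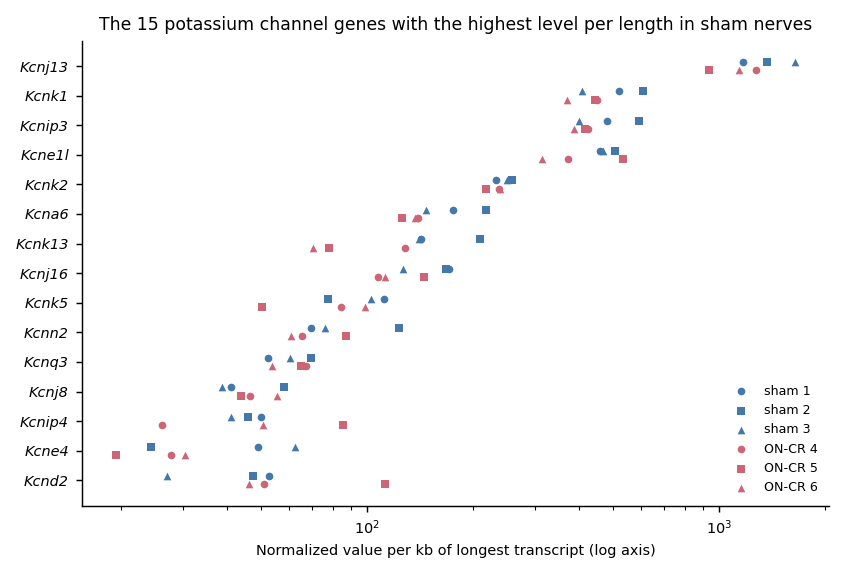
Normalized value per kb of the longest transcript (log axis) in each of the 6 mice for the 15 potassium channel genes with the highest sham level; blue marks sham mice 1 to 3 and red ON-CR mice 4 to 6. Kcnj13 lies above the others, Kcnk1, Kcnip3 and Kcne1l lie together, and the ON-CR points of Kcna6 and Kcnk13 lie to the left of their sham points.

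The comparison of ON-CR with sham asks which channel genes differed in the injured nerve 6 weeks after surgery. At this age the authors report optic gliomas in nerves of this genotype after ON-CR, so that injury and tumour cannot be told apart here. No member passed the test, and the largest shifts among genes whose groups lay apart were higher values of Kcnab2 and Kcnj12 and lower values of Kcnq1 and Kcng4 after ON-CR. Limma, with Benjamini-Hochberg adjustment over all 25755 genes, called 0 of the 79 at an adjusted p at or under 0.05, where 2.1% of all genes were called (0.971% higher and 1.13% lower). At an unadjusted p under 0.05 there were 9 members, 11.4% of the 79 against 15.6% of all genes. Voom with sample quality weights called 0 members, and a robust limma fit called 1, Kcnab2. The 3 ON-CR values lay all above or all below the 3 sham values for 12 members, 15.2% against 21.6% of all genes, and for 8 of these (10.1% against 13.5%) the unadjusted p was at or under 0.05 as well. There were 7 higher (8.86% against 10.5%) and 5 lower (6.33% against 11%). These shares were under those of all genes. With 3 mice against 3, an exact permutation test of a single gene cannot give a p below 0.1.

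The median log2 fold change over the 79 genes was 0.10, with 48 above 0 and 31 below, and over all genes it was 0.03. One mouse set the sign of this median: with ON-CR mouse 5 omitted it was −0.16, while omission of ON-CR mouse 4 or 6 gave 0.25 or 0.30. All fold changes were computed from log2(value + 1), so that those of low genes come out too small.

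**Figure D2:**
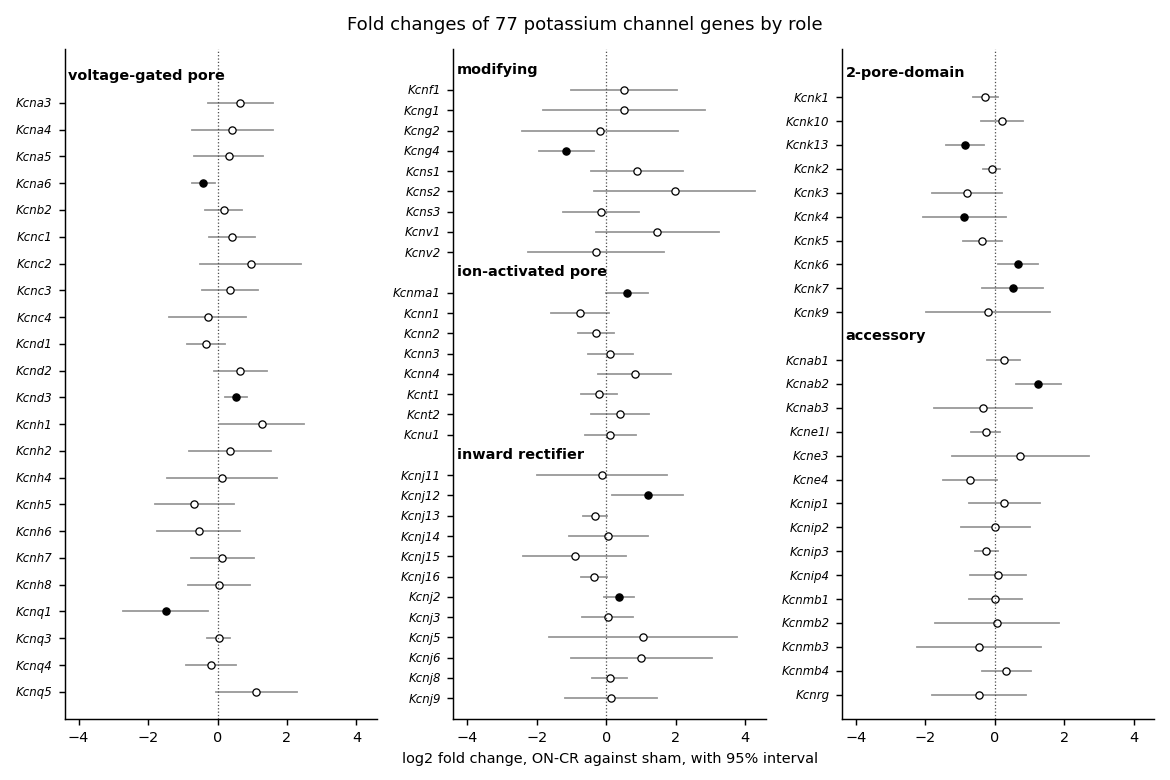
Log2 fold change of 77 of the 79 genes (ON-CR against sham, point) with its 95% interval from limma (line), grouped by role. Filled points mark the 12 genes whose groups did not overlap, and none of the 79 passed the test.

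The 4 genes with the lowest p among those whose groups did not overlap were Kcnab2, Kcnd3, Kcnk13 and Kcng4, and 1 window of 250 bases before an annotated start of each is shown to place them. The windows are from RefSeq on GRCm38.p6 and are read 5′ to 3′ on the strand of the gene, in lower case, with GGGCGG or its reverse complement CCGCCC in capitals. They are chr4:152477550-152477799 on the minus strand for Kcnab2, chr3:105451640-105451889 on the plus strand for Kcnd3, chr12:99964249-99964498 on the plus strand for Kcnk13 and chr8:119635681-119635930 on the minus strand for Kcng4.
Kcnab2: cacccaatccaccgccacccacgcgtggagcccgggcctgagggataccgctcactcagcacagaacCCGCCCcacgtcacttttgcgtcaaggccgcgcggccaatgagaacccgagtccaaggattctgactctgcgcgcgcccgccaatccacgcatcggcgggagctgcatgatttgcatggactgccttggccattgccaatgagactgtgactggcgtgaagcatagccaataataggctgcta
Kcnd3: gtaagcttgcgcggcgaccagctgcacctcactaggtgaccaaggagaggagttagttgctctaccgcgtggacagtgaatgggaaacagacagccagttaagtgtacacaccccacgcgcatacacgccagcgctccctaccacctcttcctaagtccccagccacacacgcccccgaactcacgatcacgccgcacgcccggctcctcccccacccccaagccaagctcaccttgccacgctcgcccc
Kcnk13: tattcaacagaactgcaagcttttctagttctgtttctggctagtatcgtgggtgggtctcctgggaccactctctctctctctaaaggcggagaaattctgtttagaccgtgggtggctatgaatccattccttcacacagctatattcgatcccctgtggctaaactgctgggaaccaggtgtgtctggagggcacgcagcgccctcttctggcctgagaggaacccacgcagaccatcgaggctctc
Kcng4: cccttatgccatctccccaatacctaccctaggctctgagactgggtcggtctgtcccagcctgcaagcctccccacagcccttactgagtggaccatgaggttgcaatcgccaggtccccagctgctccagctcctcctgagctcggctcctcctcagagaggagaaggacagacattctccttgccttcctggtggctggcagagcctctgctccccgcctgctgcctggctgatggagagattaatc
The window of Kcnab2, 1 of 3 annotated for the gene, holds 1 such hexamer and 20 CG dinucleotides. None was found in the windows of Kcnd3, Kcnk13 and Kcng4, which hold 18, 8 and 4 CG dinucleotides. RefSeq windows were found for 57 of the 79 genes, 81 windows in all, and 44.4% of these held the hexamer on either strand, against 32.7% of all 32851 windows of this length. TATAAA or its reverse complement TTTATA was in 3.70% of the member windows, those of Kcnj13, Kcnj16 and Kcnj9, against 12.4% of all windows. These matches describe letters and are not binding sites.

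Among the 25 pore-forming voltage-gated genes (Kcna, Kcnb, Kcnc, Kcnd, Kcnh and Kcnq), 18 had a fold change above 0 and 7 below, and 1 was higher and 2 lower without overlap between the groups, 3 of 25 where 21.6% of all genes had groups apart. Kcnd3 (ENSMUSG00000040896.16, chr3:105452330-105674002), the A-type channel Kv4.3 that shapes the approach to the next spike, was at 214, 204 and 212 in sham and at 313, 313 and 287 in ON-CR mice. Every ON-CR value was above every sham value, and relative to the mean these were the tightest groups of the 12 without overlap. The means were 210.1 ± 5.67 (SD, n = 3) and 304 ± 15.4 (SD, n = 3). The log2 fold change was 0.53 ± 0.15 (SE; limma adjusted p = 0.101), and 0.51 to 0.57 with any 1 ON-CR mouse omitted. The antisense transcript Kcnd3os shares 165 of its exon bases.

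The other Kcnd genes, of the same A-type subfamily, had overlapping groups. Kcnd2, which encodes Kv4.2, stood at 272, 244 and 139.9 in sham and 263, 582 and 238 in ON-CR mice. Here a single ON-CR mouse was high and the groups overlapped, with a log2 fold change of 0.65 ± 0.35 that was 0.25 without ON-CR mouse 5. Kcnd1, on the X chromosome, had 162, 139.9 and 116 in sham and 131, 80.7 and 127 in ON-CR mice, an overlap with a log2 fold change of −0.33 ± 0.24.

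Kcna6 (ENSMUSG00000038077.7, chr6:126708329-126740674), a Shaker-type delayed rectifier, was at 1025, 1271 and 861 in sham and 817, 736 and 798 in ON-CR mice. All ON-CR values were below all sham values, by a narrow margin between sham mouse 3 and ON-CR mouse 4. The log2 fold change was −0.41 ± 0.15 (SE; limma adjusted p = 0.221). A transcript on the opposite strand, Gm26673, shares 2355 of the exon bases of Kcna6, so that the values of Kcna6 are uncertain to that extent. The same subfamily held Kcna4 and Kcna5, at 20.7 to 41.4 in the sham mice, with their highest values in ON-CR mouse 5.

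Kcnq1, the Kv7.1 subunit of epithelia and heart, was at 9.55, 16.8 and 30.1 in sham and 5.08, 4.19 and 7.27 in ON-CR mice. All ON-CR values were lower, at 4 to 7 reads per library. The log2 fold change of −1.49 ± 0.55 (adjusted p = 0.218) was the most negative of the 79. Its antisense transcript Kcnq1ot1 shares 121 exon bases. In contrast, Kcnq3, a subunit of the M-current that damps repetitive firing, was at 619.7, 821 and 716 in sham and 796, 769 and 638 in ON-CR mice. Its groups overlapped throughout, with a log2 fold change of 0.03 ± 0.15 and a 95% interval from −0.29 to 0.36.

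In the Kcnb, Kcnc and Kcnh subfamilies no gene had groups apart. Kcnc1, the Kv3.1 channel of fast-spiking neurons, was at 115, 103 and 72.8 in sham and 117, 192 and 91.4 in ON-CR mice. Kcnh1, an ether-a-go-go channel, was at 45.6, 17.7 and 18.8 in sham and 26.9, 111 and 78.9 in ON-CR mice, so that ON-CR mice 5 and 6 lay above all sham mice and ON-CR mouse 4 among them. Its log2 fold change of 1.29 ± 0.54 (adjusted p = 0.29) was the largest among the voltage-gated genes, at 0.87 without ON-CR mouse 5. Kcnh8, the highest of its subfamily, was at 32.9 to 83.8 in sham and 38.9 to 73.7 in ON-CR mice.

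The 9 modifying subunits (Kcnf, Kcng, Kcns and Kcnv) form no channel alone and join other voltage-gated subunits. Of these, Kcng4 (ENSMUSG00000045246.11, chr8:119623854-119635680), the Kv6.4 subunit, was the only gene with groups apart. It had values of 115, 163 and 103 in sham and 80.8, 68.1 and 31.2 in ON-CR mice, every ON-CR value below every sham value. Its mean went from 127 ± 31.7 (SD, n = 3) to 60.02 ± 25.8 (SD, n = 3), with a log2 fold change of −1.15 ± 0.36 (limma adjusted p = 0.148). Omission of ON-CR mouse 6 gave −0.74 and omission of ON-CR mouse 4 gave −1.41. Kcns3, the highest of its subfamily, overlapped at 26.3 to 62.6 in sham and 18.9 to 70.2 in ON-CR mice. Kcnf1 was at 12.2 to 21.2 in sham and at 10.97, 84.9 and 14.5 in ON-CR mice, high only in mouse 5. For Kcns2 (0, 0 and 0.939 in sham, 5.98, 15.7 and 0 in ON-CR) and Kcnv1 (3.18, 0 and 1.88 in sham, 7.98, 8.39 and 2.08 in ON-CR) the sham values are at the floor of 3 reads, and no fold change is given.

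Among the 8 genes of calcium- and sodium-activated pores and their relatives (Kcnma, Kcnn, Kcnt and Kcnu), 5 had a fold change above 0 and 3 below. Kcnma1, the large-conductance BK channel opened by calcium and voltage, had 198, 177 and 200.04 in sham and 256, 479 and 204 in ON-CR mice. All ON-CR values were above, with ON-CR mouse 6 only just so. The log2 fold change was 0.61 ± 0.28 (adjusted p = 0.325), and 0.25 without ON-CR mouse 5. The small-conductance channel Kcnn2, which sets the pause after spikes, was at 256, 455 and 279.5 in sham and 241, 322 and 224 in ON-CR mice, an overlap. Kcnn1 ran at 35.0 to 69.1 in sham and 21.8 to 41.9 in ON-CR mice, with a log2 fold change of −0.75 ± 0.37, while Kcnn3 was at 68.6 to 100.6 in sham and 62.3 to 114 in ON-CR mice. Kcnn4, the intermediate-conductance channel of blood and immune cells, was at 14.9, 16.8 and 40.4 in sham and 36.9, 26.2 and 62.3 in ON-CR mice. Sham mouse 3 and ON-CR mouse 6 were its high values, and the groups overlapped. The sodium-activated channel gene Kcnt1 (Slack) was at 167 to 246 in sham and 127 to 202 in ON-CR mice, Kcnt2 (Slick) at 33.6 to 100.5 and 61.8 to 88.3, and Kcnu1, known from sperm, at 23.5 to 35.4 and 29.1 to 37.9.

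Of the 12 inward rectifiers (Kcnj), 8 had a fold change above 0 and 4 below, and 2 of the 12 were higher without overlap, where 10.5% of all genes were. Kcnj12, the strong rectifier Kir2.2, was at 19.1, 9.74 and 8.45 in sham and 20.9, 27.3 and 38.4 in ON-CR mice. Sham mouse 1 lay just under ON-CR mouse 4, and the log2 fold change was 1.19 ± 0.46 (adjusted p = 0.238). Its close relative Kcnj2, the Kir2.1 channel of microglia, endothelium and muscle, was at 215, 201 and 206 in sham and 357, 220.2 and 248 in ON-CR mice. The margin between the groups was small, and the log2 fold change of 0.38 ± 0.20 was 0.17 without ON-CR mouse 4. Of 8 microglia and macrophage genes, 6 had a fold change above 0, and 2 of these were called higher. Their summed value was 14200 to 18798 in sham and 18439 to 27322 in ON-CR mice, with ON-CR mice 4 and 6 highest. Its part in the values of Kcnj2 was not tested.

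Kcnj16, which forms glial channels with the left-out Kcnj10, was at 635, 623 and 469.6 in sham and 398, 539 and 418 in ON-CR mice. ON-CR mice 4 and 6 lay below all sham mice and ON-CR mouse 5 did not, with a log2 fold change of −0.35 ± 0.17 (adjusted p = 0.361). Kcnj13 overlapped at 1485 to 2098 in sham and 1194 to 1625 in ON-CR mice. Kcnj8, the pore of the ATP-sensitive channel of pericytes and smooth muscle, was at 98.6 to 148 in sham and 112 to 141 in ON-CR mice, with a log2 fold change of 0.10 ± 0.22. The G-protein-gated channel genes Kcnj6 and Kcnj9 were high in ON-CR mouse 5, at 79.7 and 148, against 3.54 to 37.1 and 23.9 to 59.4 in the other 5 mice.

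The 10 genes of 2-pore-domain leak channels (Kcnk) were the one large subfamily with more fold changes below 0 (7) than above (3), and 4 of the 10 had groups without overlap, 2 in each direction, where 21.6% of all genes did. Kcnk13 (ENSMUSG00000045404.16, chr12:99964499-100062682) had values of 440.4, 645 and 434 in sham and 395, 241 and 217 in ON-CR mice. Every ON-CR value was below every sham value, and ON-CR mouse 4 was nearest to the sham mice. The means were 507 ± 120.3 (SD, n = 3) and 284 ± 96.5 (SD, n = 3), with a log2 fold change of −0.86 ± 0.24 (limma adjusted p = 0.11). Without ON-CR mouse 4 the log2 fold change was −1.12 and the gene was called (limma adjusted p = 0.0311, within a range of 0.0311 to 0.398 over the alternatives). The microglia and macrophage sum given above was higher in ON-CR mice 4 and 6 than in any sham mouse. Its genes were not alike, with log2 fold changes of −0.27 for Tmem119, lower in every ON-CR mouse, and −0.35 for P2ry12. The sum of mature oligodendrocyte genes was lower in every ON-CR mouse, at 617136 to 729909 against 1272450 to 1823120. The part of either in the values of Kcnk13 was not tested.

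Kcnk6, the TWIK2 channel, went the other way, with 87.0, 51.4 and 67.6 in sham and 109.7, 95.4 and 118 in ON-CR mice. All ON-CR values were above, and the log2 fold change was 0.67 ± 0.26 (adjusted p = 0.237). The low-level genes Kcnk7, which gives no current alone, and Kcnk4, the mechanosensitive channel TRAAK, had groups apart at 12.7 to 15.03 against 16.0 to 23.9, and at 8.41 to 13.1 against 3.69 to 8.31. Their log2 fold changes were 0.51 ± 0.40 and −0.87 ± 0.53. Kcnk4 shares 587 exon bases with Catsperz on the same strand.

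The acid-sensitive channel TASK1, encoded by Kcnk3, was at 198, 118 and 149 in sham and 57.8, 203 and 55.1 in ON-CR mice. ON-CR mice 4 and 6 were well below the sham mice and ON-CR mouse 5 was the highest of the 6. The log2 fold change was −0.80 ± 0.45 (adjusted p = 0.429) with all mice and −1.41 without ON-CR mouse 5, when Kcnk3 was called (limma adjusted p = 0.0194, within a range of 0.0194 to 0.743 over the alternatives). Its relative Kcnk9, TASK3, was at 115, 45.2 and 83.6 in sham and 18.9, 304 and 48.8 in ON-CR mice, again with ON-CR mouse 5 on top. Kcnk1, Kcnk2 and Kcnk5, abundant leak channel genes besides Kcnk13, had overlapping groups. Kcnk1 was at 1163, 1364 and 916 in sham and 1005, 994 and 827 in ON-CR mice, with a log2 fold change of −0.27 ± 0.16. Kcnk2 was at 829.7, 925 and 893 in sham and 849, 779 and 855 in ON-CR mice, with a log2 fold change of −0.09 ± 0.11 and a 95% interval from −0.35 to 0.16. With scaling by library size only, which moves the median of all genes by 0.12, it was 0.04. Kcnk5, the alkaline-activated TASK2, was at 263 to 379 in sham and 171 to 335 in ON-CR mice.

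**Figure D3:**
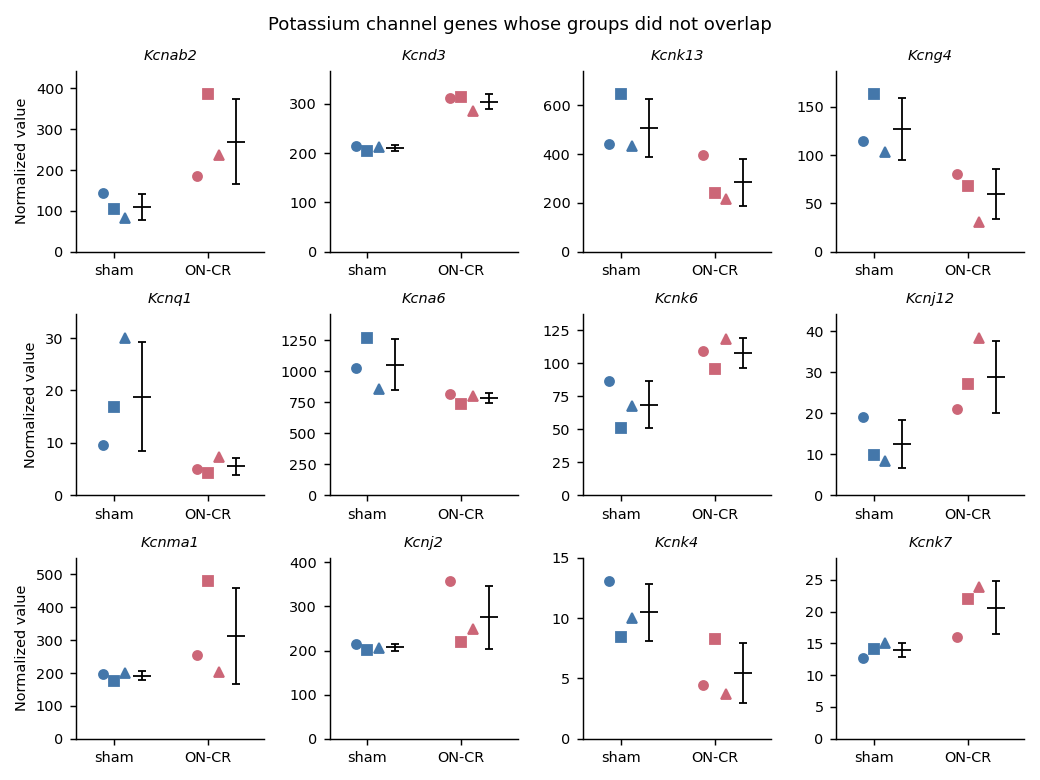
Normalized values of the 12 potassium channel genes whose sham (blue) and ON-CR (red) values did not overlap, with the mean and SD of each group (n = 3) beside the points; circle, square and triangle mark the 3 mice of a group. Kcnd3 has the tightest groups, and ON-CR mouse 5 (red square) is the highest point of Kcnab2 and Kcnma1.

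Accessory subunits (Kcnab, Kcne, Kcnip, Kcnmb and Kcnrg) numbered 15, with 9 fold changes above 0 and 6 below. The gene with the lowest p of all 79 was among them. Kcnab2 (ENSMUSG00000028931.11, chr4:152390742-152477871) encodes the cytoplasmic beta2 subunit that binds Kv1 channels and helps to bring them to the axon membrane. Its values were 143, 104 and 81.7 in sham and 186, 386 and 237 in ON-CR mice, and every ON-CR value was above every sham value. The sham mean was 109.8 ± 31.2 and the ON-CR mean 269.7 ± 104 (SD, n = 3 for both). This is a log2 fold change of 1.26 ± 0.29 (SE), with a limma adjusted p of 0.0605 that misses the threshold. It was called with a robust fit (adjusted p = 0.0447), with scaling by library size only (0.0426) and without ON-CR mouse 4 (0.0397), and over all alternatives the adjusted p by limma was 0.0397 to 0.234. With ON-CR mouse 5 omitted, the log2 fold change was 0.97. Gm16334 on the same strand shares 125 of the exon bases of Kcnab2. Kcnab1, the beta1 subunit, was at 92.1 to 117 in sham and 115 to 157 in ON-CR mice, with a log2 fold change of 0.26 ± 0.22.

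The Kcnip genes encode calcium-binding partners of Kv4 channels. Kcnip3, which also represses transcription as DREAM, was at 1318, 1626 and 1097 in sham and 1163, 1143 and 1060.2 in ON-CR mice, with overlap and a log2 fold change of −0.25 ± 0.15. Kcnip4 was at 98.8 to 119.9 in sham and 62.9, 204 and 121 in ON-CR mice. Kcnip1 and Kcnip2 were highest in ON-CR mouse 5 as well, at 173 and 84.9, against 44.6 to 67.9 and 28.0 to 56.2 in the other mice. In the Kcne subfamily, Kcne1l was at 709, 782 and 726 in sham and 577, 824 and 487 in ON-CR mice, the ON-CR values lying on both sides. Kcne4, which damps Kv1 and Kv7.1 currents, was at 131, 64.6 and 166 in sham and 73.8, 51.4 and 81.0 in ON-CR mice, with overlap at sham mouse 2 and a log2 fold change of −0.72 ± 0.35 (adjusted p = 0.356). Kcnmb4, the neuronal beta subunit of BK, ran at 35.7 to 67.9 in sham and 55.7 to 80.3 in ON-CR mice, and Kcnrg, a cytosolic regulator of Kv assembly, at 16.0 to 18.6 and 3.99 to 22.0.

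The clearest pattern in the 79 genes was a difference between mice and not between groups. In ON-CR mouse 5, 40 of the 79 genes (50.6%) had their highest value, against 20.6% of all genes. Among members with values high enough for a ratio (a median of at least 10 in the other 5 mice), 16 of 64 (25%) were at least 2-fold above that median in ON-CR mouse 5, against 5.82% of all genes. In each of the other mice 1 to 3 members were, 1.56% to 4.55% against 1.68% to 4.72% of all genes. The median difference of the 79 genes from their means in the sham mice was 0.54 (log2) in ON-CR mouse 5, and −0.08 and −0.16 in ON-CR mice 4 and 6. At the other end, 23 of the 79 genes (29.1%) had their lowest value in ON-CR mouse 6, against 17% of all genes.

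By role, the highest value was in ON-CR mouse 5 for 16 of 25 voltage-gated pores, 6 of 9 modifying subunits, 8 of 15 accessory subunits, 5 of 12 inward rectifiers, 3 of 10 leak channels and 2 of 8 ion-activated pores. All 4 Kcnc genes were among them. The 16 genes at least 2-fold above the median of the other mice included Kcna4, Kcna5, Kcnab2, Kcnc2, Kcnd2, Kcnf1, Kcnh1, Kcnh2, Kcnh7, Kcnip1, Kcnip2, Kcnj9, Kcnk9, Kcnma1 and Kcnq5. Kcnk9 was 6.23-fold above, Kcnc2, the Kv3.2 channel of interneurons, 6.18-fold, Kcnf1 5.84-fold, Kcnj9 4.14-fold and Kcnh1 4.13-fold. The ERG-type channels Kcnh2 and Kcnh7 were at 39.8 and 103, against 11.4 to 15.03 and 35.9 to 62.8 in the other mice, and Kcnq5 was at 43.0 against 6.57 to 20.9. Of the 15 members with the highest level per length, 6 were above the median of the other mice in ON-CR mouse 5 and 3 had their highest value there, Kcnd2 (2.38-fold), Kcnip4 (1.86-fold) and Kcne1l (1.16-fold). Kcnk1 (0.989-fold), Kcnip3 (0.983-fold), Kcnk2 (0.91-fold) and Kcna6 (0.855-fold) were among the 9 below it.

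When ON-CR mouse 5 was left out, the log2 fold change of Kcnc2 went from 0.95 to 0.12 and that of Kcnk9 from −0.19 to −1.28. Kcna4 (0.43 to −0.16), Kcna5 (0.32 to −0.19), Kcnf1 (0.51 to −0.37), Kcnh2 (0.36 to −0.21), Kcnh7 (0.13 to −0.31), Kcnip1 (0.28 to −0.34), Kcnip2 (0.02 to −0.48) and Kcnj9 (0.13 to −0.67) changed sign. Kcnab2 (0.97), Kcnh1 (0.87), Kcnq5 (0.74), Kcnd2 (0.25) and Kcnma1 (0.25) stayed above 0.

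Markers of brain neurons were also highest in ON-CR mouse 5. All 8 of the listed genes had their highest value in ON-CR mouse 5, and their summed value there was 9248, against 1438 and 2651 in ON-CR mice 4 and 6 and 4331, 1747 and 1332 in sham mice 1, 2 and 3. Snap25, a protein of the synaptic release machinery, was at 3193 in ON-CR mouse 5 and at 394 to 1730 in the other mice, and Slc17a6, the vesicular glutamate transporter VGLUT2, at 416 and 14.1 to 52.0. None of the 8 was at 0 in any library, but Slc32a1 was at 1.36 in ON-CR mouse 4, under the floor of 3 reads. Sham mouse 1 had the second-highest sum, and 6 of the 79 channel genes (7.59%) had their highest value there, against 15.8% of all genes. The median difference of the 79 genes from their sham means was 0.04 in sham mouse 1. ON-CR mouse 6 had the third-highest sum and the lowest such median, −0.16. Of the 16 channel genes at least 2-fold up in ON-CR mouse 5, the second-highest value was in sham mouse 1 for 10, in ON-CR mouse 4 for 3, in ON-CR mouse 6 for 2 and in sham mouse 3 for 1. These 16 were picked by their values in ON-CR mouse 5, and the same split over all genes was not computed. An optic nerve holds axons but no neuronal cell bodies. The summed value of 6 retinal ganglion cell genes was 2894 in ON-CR mouse 5 and 749 to 1303 in the other mice. Of these 6, the 3 neurofilament genes of axons and neurons were highest in ON-CR mouse 5, with Nefl at 1666 against 173 to 511, Nefm at 397 against 35.4 to 96.4 and Nefh at 136 against 16.0 to 35.0. The other 3, Rbpms, Sncg and the transcription factor gene Pou4f1, were not highest there, and Pou4f1 was at 14.1 against 9.35 to 35.2. The part of these markers in the values of the channel genes was not tested.

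**Figure D4:**
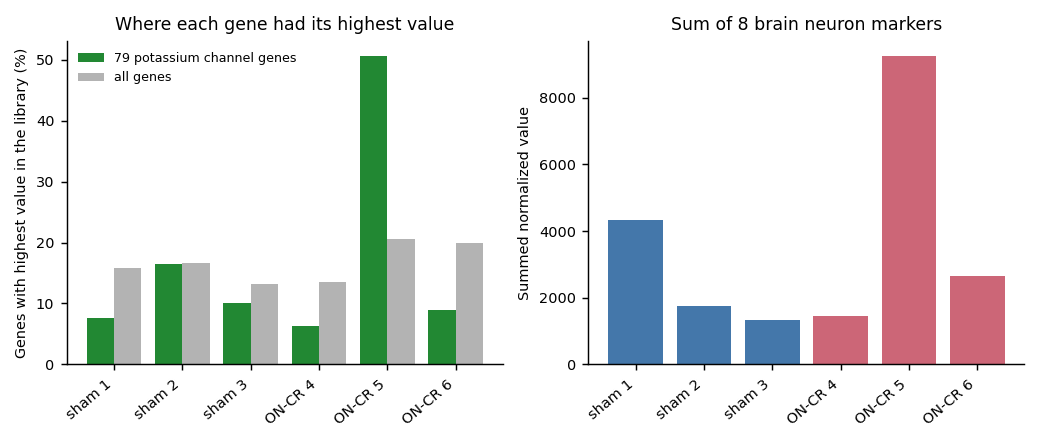
Left, percent of genes whose highest value among the 6 mice fell in each library, for the 79 potassium channel genes (green) and all genes (grey). Right, the summed normalized value of 8 brain neuron markers in each library. ON-CR mouse 5 stands out in both, with 50.6% of the channel genes and a sum of 9248.

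**Figure D5:**
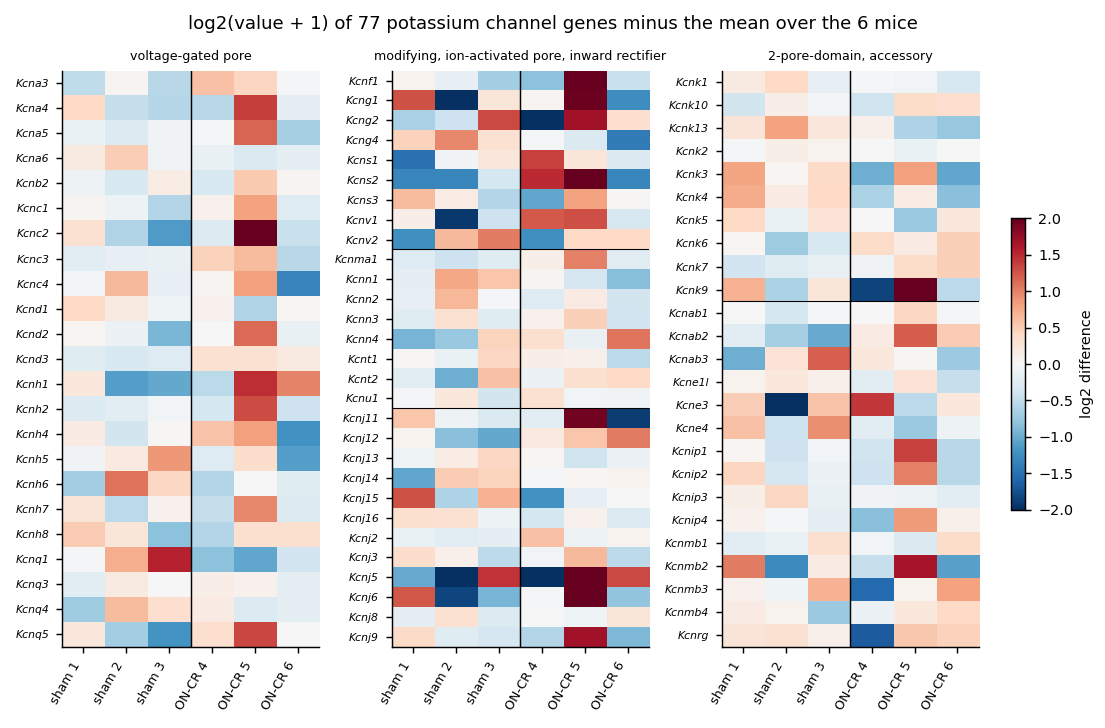
log2(value + 1) of 77 of the 79 genes minus the mean of each over the 6 mice, by role, in each mouse; red is above and blue below the mean, the colours end at 2 and −2, and the vertical line parts sham from ON-CR. The column of ON-CR mouse 5 is red for most voltage-gated genes, while Kcnd3 is blue in all sham and red in all ON-CR mice.

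Other genes of potassium handling were taken from a list of channel partners, hyperpolarization-activated channels, the sodium-potassium ATPase, cation-chloride cotransporters and a lysosomal potassium channel, of which 33 were in the table. Limma called 2 of the 33, 1 in each direction, where 2.1% of all genes were called. Fxyd1, phospholemman, a regulator of the sodium-potassium pump, was at 3150, 2688 and 2906 in sham and 5170, 5297 and 5615 in ON-CR mice. The groups were far apart, at means of 2914 ± 231 and 5361 ± 229.5 (SD, n = 3 for both), and the log2 fold change was 0.88 ± 0.11 (limma adjusted p = 0.00364). It was called in every one of the alternatives. Lrrc38, a gamma subunit that helps BK channels to open, was at 91.3, 89.4 and 108 in sham and 41.9, 37.7 and 27.0 in ON-CR mice. Every ON-CR value was below every sham value, and the log2 fold change was −1.43 ± 0.27 (limma adjusted p = 0.0286). With any 1 mouse omitted it was −1.25 to −1.56, and the call was lost without sham mouse 1, 2 or 3 or ON-CR mouse 6 (limma adjusted p = 0.105 to 0.14). Kcnma1, the pore that Lrrc38 joins, was higher without passing the test, as given above. The other 31 genes did not pass. Fxyd7, another regulator of the sodium-potassium pump, was at 70.04, 40.7 and 34.7 in sham and 109.7, 177 and 100.7 in ON-CR mice. Every ON-CR value was above every sham value, highest in ON-CR mouse 5, and the log2 fold change was 1.41 ± 0.33 (limma adjusted p = 0.0606). It was called with scaling by library size only (limma adjusted p = 0.0438), with at least 10 reads in every library (0.0487), with a robust fit (0.0374) and with voom (0.0479), and over all alternatives the adjusted p was 0.0374 to 0.243. Atp1b3, a beta subunit of the pump, was called lower only without ON-CR mouse 4, and Fxyd6, of the same family as Fxyd7, only without ON-CR mouse 5.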

How the data were processed

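Whole optic nerves of 3 sham and 3 ON-CR mice were sequenced in bulk, and all 6 libraries were used and grouped by the sample labels. Reads were aligned by the authors with Illumina DRAGEN and assigned to Ensembl genes (mm10), and gene counts were then put through the median normalization of Partek Flow 10.0. The deposited values are therefore a normalized signal per gene, estimated counts over 1 factor per library. As these are not raw counts, limma (3.58.1, R 4.3.3) was run on log2(value + 1). Its prior variance followed mean expression, and p-values were adjusted by Benjamini and Hochberg across all 25755 genes. Adjusted p-values in the text come from limma.

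Division by the most frequent step among low values gave estimated reads (66.2% to 68.4% of values above 0 were whole within 0.02), used for depth, the floor of 3 reads, scalings, voom and filters only. The floor covers counting error. On simulated data of 25755 genes for this comparison, 200 of 200 changed genes were called, with 3 false calls, and 0 were called with none changed. Whether shifts of the size and level seen in the potassium channel genes would be called was not tested.

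Genes were placed on GRCm38 (GENCODE), and promoter windows are from RefSeq. The members, marker lists and partner lists were chosen with earlier results of these data known. Named with values were members with an unadjusted p at or under 0.05 and no overlap, and the 15 highest per length in sham. Also named were called partner genes and the highest of each subfamily by mean value, not divided by length. Further genes, among them those high in ON-CR mouse 5, Kcnk3, Kcnk4, Kcnk7, Kcnj2, Kcnj6, Kcnn1, Kcnn3, Kcnn4, Kcnab1, Kcnd1, Kcns2, Kcnt2, Fxyd6, Fxyd7 and Atp1b3, were named after their values were seen. Values of 2 member genes were counted in all totals but are not given or drawn singly.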

Additional observations from a re-analysis of the deposited data

How the results depend on the processing

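Of 16 alternatives, pseudocounts of 2 and 0.5, TMM and upper-quartile scaling, both filters on reads and voom called 0 potassium channel genes. Scaling by library size only called 1 (Kcnab2), as did the robust fit, and leaving out 1 mouse called 0 to 2. The 12 genes without overlap became 17 to 26 when 1 mouse was left out, and 34 without sham mouse 1 and ON-CR mouse 5, a pair chosen after the data were seen. Fewer mice make separate groups easier to reach. Partner genes called were 1 to 3 with 1 mouse left out, 1 without that pair, and 3 with library size only, the filter of 10 reads, the robust fit and voom, where Fxyd7 was added. The median log2 fold change of the members was −0.16 to 0.30 with 1 mouse left out, and −0.15 without the pair. Counting Kcnmb4os2 and Kcnq1ot1 as members changed no count.

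Of 59 named genes, 38 kept the sign of their log2 fold change in every alternative that gave them a value. For 8 of the 59, 1 or both filters on reads gave none. Under voom it turned to −0.042 for Kcnh8, −0.084 for Kcnip2, −0.048 for Kcnip4 and −0.094 for Kcnj9, and under library size only to 0.036 for Kcnk2. With mice left out (1 at a time or the pair), the log2 fold change ran from −0.16 to 0.81 for Kcna4, −0.19 to 0.73 for Kcna5, −0.45 to 0.011 for Kcnd1, −0.37 to 1.05 for Kcnf1, −0.25 to 0.65 for Kcnh2, −0.31 to 0.40 for Kcnh7, −0.36 to 0.34 for Kcnh8, −0.34 to 0.63 for Kcnip1, −0.48 to 0.30 for Kcnip2, −0.32 to 0.53 for Kcnip4, −0.014 to 0.28 for Kcnj8, −0.67 to 0.62 for Kcnj9, −0.56 to 0.031 for Kcnk5, −1.28 to 0.68 for Kcnk9, −0.17 to 0.35 for Kcnn3, −0.11 to 0.13 for Kcnq3, −0.83 to 0.28 for Kcnrg, −0.57 to 0.34 for Kcns3, −0.34 to 0.014 for Kcnt1 and −0.025 to 0.26 for Kcnu1. The causes were not tested. No paired analysis was possible because the mice carry different numbers in the groups. At this depth, 11 members were at or under the floor of 3 reads in at least 1 library.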
